A study of Homo sapiens with 2 samples.

Results

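Interferon-stimulated genes were followed in C4-2B ENZR, a human prostate cancer cell line that keeps growing under enzalutamide, an antiandrogen drug. The set was a fixed list of 44 gene symbols, matched by name and chosen with earlier results of these data known. All 44 were found in both deposited tables, which together listed 26447 named genes. The shNRP2 library came from cells infected with a lentivirus that carries a short hairpin RNA against the coding sequence of NRP2, which encodes neuropilin-2, a surface protein that helps plexins and VEGF receptors bind their ligands; its genotype label is NRP2 knockdown. The shControl library came from cells infected in the same way with a non-targeting hairpin, and its genotype label is WT. Both lines were kept in 20 µM enzalutamide and under antibiotic selection, so infection, hairpin expression, selection and drug were shared by both groups. Each group is 1 library and the labels name 1 hairpin per group, so there is no spread between replicates and no test between conditions; differences are those between these 2 libraries and have no replicate check. The sources used here do not say whether the selected cells were pools or clones.

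Interferons are secreted proteins that bind surface receptors and signal through JAK kinases. Type I and type III interferons act through a transcription factor complex that includes STAT2 and IRF9 and binds interferon-stimulated response elements (ISRE) in DNA, and interferon-gamma acts mainly through gamma-activated sites (GAS). The genes switched on in this way sense foreign RNA, block its translation, degrade it, or stop viruses from entering or leaving cells. Many are also transcribed at a low level in epithelial cancer cells that receive no interferon.

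The shNRP2 library held 22992304 reads on genes and the shControl library 21052178. Levels are given in CPM, read counts that the authors scaled by library size with the TMM method, in which 1 read was worth 0.0472 CPM in the shNRP2 library and 0.0487 CPM in the shControl library. A count of 0 reads allows a level of up to 0.141 CPM in shNRP2 and 0.146 CPM in shControl (3 reads). The targeted gene NRP2 had 7 reads (0.330 CPM) in shNRP2 and 20 reads (0.974 CPM) in shControl, 2.95-fold lower with a 95% counting interval of 1.20 to 8.26. All 7 prostate luminal markers were present in both libraries, but not at like levels. KLK3, the gene of prostate-specific antigen, was at 41.0 CPM in shNRP2 and 5.60 CPM in shControl, 7.33-fold higher (6.03 to 8.98), and the related KLK2 at 92.5 CPM in shNRP2 and 16.4 CPM in shControl, 5.65-fold higher (5.03 to 6.37). The ratios of the other 5 lay between 0.887 (FOLH1) and 1.35 (KRT8), with HOXB13 at 486 CPM in shNRP2 and 511 CPM in shControl. The 6 leukocyte markers summed to 10.9 CPM in shNRP2 and 7.45 CPM in shControl, most of it CD68 (9.95 CPM in shNRP2 and 6.67 CPM in shControl), and the other 5 had at most 17 reads in either. The 4 fibroblast markers summed to 35.7 CPM in shNRP2 and 45.4 CPM in shControl, mostly COL1A1, with DCN at 0 reads in both, and the 3 endothelial markers summed to 3.87 CPM in shNRP2 and 3.75 CPM in shControl, with PECAM1 and CDH5 at 0 reads in shControl. The part of other cells, or of the difference in luminal markers, in the results below was not tested, and in bulk RNA a change in the share of cells and a change in RNA per cell cannot be told apart.

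A few interferon-stimulated genes were higher in the shNRP2 library and most were within 1.5-fold of the shControl library. The 7 members at least 1.5-fold higher were LGALS3BP, SAMD9, IFI6, OAS1, IFITM2, IFIT1 and IFI35, and PLSCR1 was the 1 member at least 1.5-fold lower. These calls use the log2 change of CPM + 1, in which genes of low level move less than in a plain ratio, and a mean of at least 1 CPM over the 2 libraries, which 37 of the 44 members had. The 7 higher members are 18.9% of those 37, where 5.78% of all 13316 genes compared were as high, and the 1 lower member is 2.70%, where 3.57% of all genes were as low. The remaining 29 lay between. The median log2 change was 0.19 over the members, with a range from -0.62 to 1.26, and 0.03 over all genes compared; 28 members (75.7%) lay above 0 and 9 below, where 54.1% of all genes lay above 0. LGALS3BP and SAMD9 were the 2 members at least 2-fold higher, or 5.41%, against 1.46% of all genes, and 0 members were at least 2-fold lower, against 0.526% of all genes.

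**Figure D1:**
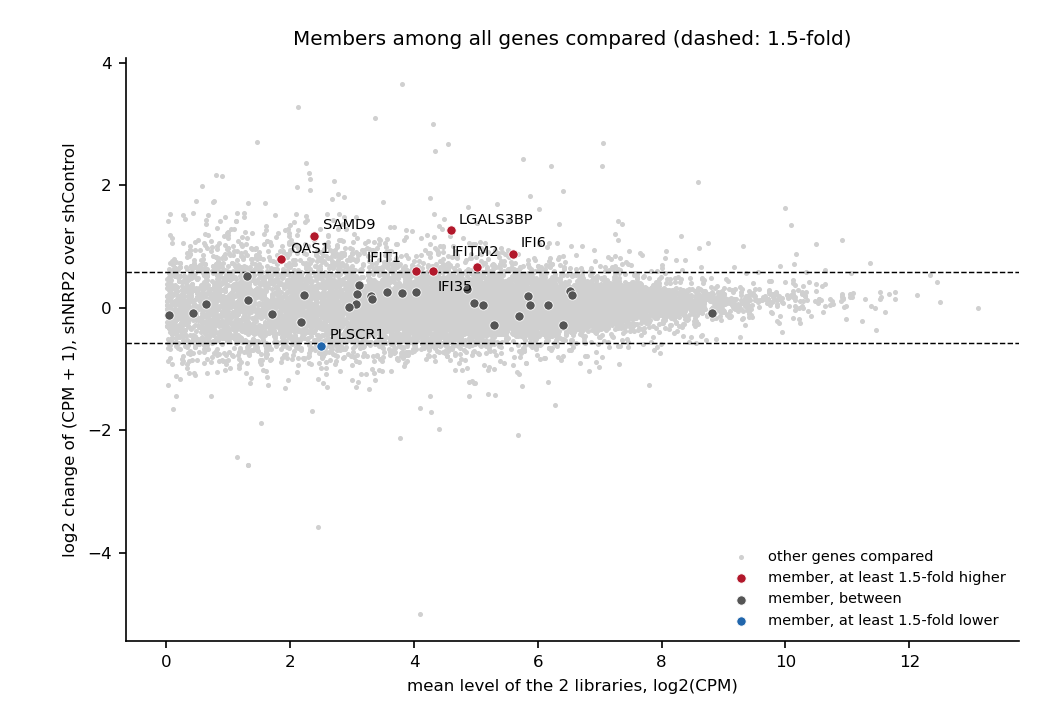
Log2 change of CPM + 1 (shNRP2 over shControl, vertical axis) against the mean level of the 2 libraries (log2 CPM, horizontal axis) for the 13316 genes compared, in grey, with the 37 members compared in colour and dashed lines at 1.5-fold. The 7 members above the upper line and PLSCR1 below the lower line are named; the other 29 lie between the lines.

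The number of these calls depended on how the libraries were scaled. With both libraries set to equal totals, 5 members were higher and 1 lower, IFIT1 and IFI35 no longer passing. Then 22 members (59.5%) lay above 0 and 15 below, where 42.5% of all genes lay above 0. In all, 7 members took the other sign under at least 1 of the 3 other scalings (STAT2, IRF1, EIF2AK2, USP18, HERC6, PARP14 and IFI16), each with a log2 change of at most 0.07. Over all genes, 769 were at least 1.5-fold higher and 476 lower with the authors' scaling, against 606 and 671 with equal totals, so the overall excess of higher genes turned round with this choice. The 5 higher members were then 13.5% of 37, against 4.55% of all genes. LGALS3BP, SAMD9, IFI6 and IFITM2 stayed at least 1.5-fold higher under every alternative scaling, pseudocount and filter tried, as did OAS1 except with a pseudocount of 5 CPM and with a filter at a mean of 5 CPM, which it did not reach. The call of IFITM2 has a further limit, since its reads may be shared with IFITM1 and IFITM3. Summed, these genes were under 1.5-fold (log2 change 0.37).

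The promoter sequences show the elements that the family is known for. Printed here are the ISRE matches of the called members, or the GAS match where no ISRE match was found. Those of ISG15, a much studied member that was not called, are added (chosen after its value was seen). IFITM2, a called member, had no promoter sequence available, and a GAS match of PLSCR1 is not printed. RefSeq promoter windows of GRCh38.p14, 250 bases before to 50 bases after each annotated start, were available for 37 of the 44 members, 1 of them (DDX58) under its newer symbol RIGI. The stretches run 5′ to 3′ along the strand of the gene with 20 bases on each side of the outermost matches, and capitals mark the match. Capitals are the ISRE core, which is GAAA, any 2 bases and GAAA again on either strand, except in OAS1 and IFI35, where they are the GAS motif, TTCNNNGAA, which reads the same on both strands.
LGALS3BP, chr17:78979952-78980001, minus strand: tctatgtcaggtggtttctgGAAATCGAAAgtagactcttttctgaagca
SAMD9, chr7:93118086-93118135, minus strand: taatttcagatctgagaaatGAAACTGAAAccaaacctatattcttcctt
IFI6, chr1:27672256-27672368, minus strand: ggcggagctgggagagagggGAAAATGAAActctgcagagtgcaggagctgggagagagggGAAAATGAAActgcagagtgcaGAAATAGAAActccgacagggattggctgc
IFIT1, chr10:89392487-89392549, plus strand: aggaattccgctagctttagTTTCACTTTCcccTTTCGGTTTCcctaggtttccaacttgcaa
OAS1, chr12:112906774-112906822, plus strand: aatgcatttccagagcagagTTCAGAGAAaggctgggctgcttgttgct
IFI35, chr17:43006742-43006790, plus strand: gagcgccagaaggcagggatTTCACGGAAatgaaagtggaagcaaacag
PLSCR1, chr3:146544657-146544706, minus strand: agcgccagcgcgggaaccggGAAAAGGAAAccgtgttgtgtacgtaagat
ISG15, chr1:1013364-1013419, plus strand: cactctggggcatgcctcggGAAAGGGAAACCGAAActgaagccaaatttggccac

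IFI6 carries 3 ISRE cores within this stretch, the upstream pair of them inside a repeated run of letters, and IFIT1 and ISG15 carry 2 each. An ISRE core was found in 25 of the 37 members with a window (67.6%), against 4.38% of the 27305 genes in the promoter table, and a GAS motif in 12 (32.4%), against 9.38% of genes; a gene counted once, with a match in any of its windows. Called and uncalled members held the core in similar shares. It was in 4 of the 6 higher members with a window (66.7%), in 17 of the 25 members between (68.0%), and in PLSCR1, the lower member. Among compared members the median log2 change was 0.20 for the 22 with a core (range -0.62 to 1.26) and 0.06 for the 10 without (range -0.24 to 0.79). In 5 members, BST2, EPSTI1, IFI27, IFITM1 and MX1, a GAS match overlapped an ISRE core. A match is a run of letters and says nothing of binding in these cells. The members without a window were IRF7, IFIT2, OAS2, OASL, IFITM2, MX2 and USP18.

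**Figure D2:**
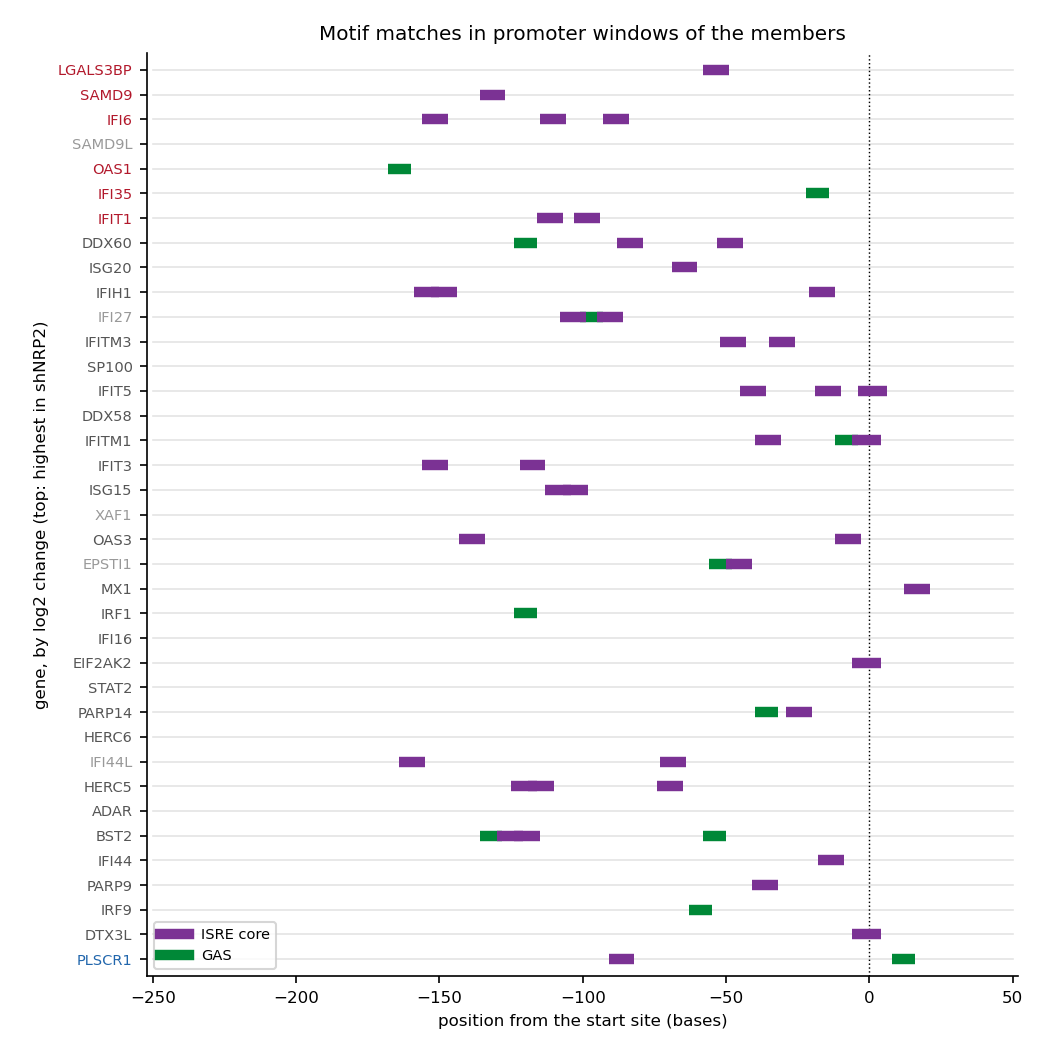
Positions of ISRE core (purple) and GAS (green) matches in 1 promoter window per member, in bases from the start site, for the 37 members with a window, ordered from the highest log2 change in shNRP2 at the top to the lowest; names are red for members at least 1.5-fold higher, blue for PLSCR1, dark grey for members between and light grey for members under a mean of 1 CPM. For a gene with several starts the leftmost window on the chromosome that holds a match is drawn. Matches sit from top to bottom of the order.

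The transcription factors of the response stayed within 1.5-fold. STAT2, a subunit of the interferon complex, was at 59.5 CPM in shNRP2 and 57.4 CPM in shControl (log2 change 0.05). IRF9, which gives that complex its DNA contact, was at 4.06 CPM in shNRP2 and 4.97 CPM in shControl (log2 change -0.24), from 86 and 102 reads, with a counting interval of the ratio from 0.606 to 1.10. IRF7, the factor that amplifies interferon gene transcription, was at 35.4 CPM in shNRP2 and 43.3 CPM in shControl, 1.22-fold lower (1.11 to 1.35), the largest absolute log2 change of the 4 (-0.29). IRF1, an early target of interferon-gamma, was at 8.54 CPM in shNRP2 and 8.13 CPM in shControl. Gene models on the opposite strand overlap 15.3% of the exon bases of IRF1, and the strand setting of the counting is not given. In the transcripts of GENCODE 29, 82.7% of the 50-base words of IRF9 also occur in AL136295.5, a model that spans it on the same strand, so its value may include reads of that model.

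The 3 RNA sensors were each higher by less than 1.5-fold on the log2(CPM + 1) scale, under the authors' and the 3 other scalings. IFIH1, which encodes the long double-stranded RNA sensor MDA5, was at 32.2 CPM in shNRP2 and 25.9 CPM in shControl, 1.24-fold higher (1.11 to 1.40). DDX58, which encodes RIG-I, the sensor of RNA ends that carry a triphosphate, was at 15.2 CPM in shNRP2 and 12.8 CPM in shControl, 1.19-fold higher (1.01 to 1.41). DDX60, a helicase linked to RIG-I signalling, was at 3.07 CPM in shNRP2 and 1.85 CPM in shControl. Its plain ratio was 1.66 (1.09 to 2.54), but on the log2(CPM + 1) scale its change of 0.51 stopped short of the 1.5-fold line, and among the pseudocounts, filters and scalings tried it passed with a pseudocount of 0.25 CPM and no other. DDX60 is thus the uncalled member nearest to that line, with IFIT1 and IFI35, both at a log2 change of 0.61, just past it.

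The IFIT genes encode proteins with tetratricopeptide repeats that bind foreign RNA and stop its translation, and IFIT2, IFIT3, IFIT1 and IFIT5 lie next to each other on chromosome 10 with IFIT1B, which had 0 reads in both libraries. IFIT1, which binds the capped ends of foreign RNA, was at 20.0 CPM in shNRP2 and 12.8 CPM in shControl, 1.56-fold higher (1.34 to 1.83), from 424 and 263 reads. IFIT5 was at 12.9 CPM in shNRP2 and 10.7 CPM in shControl, IFIT2 at 10.5 and 9.40 CPM and IFIT3 at 5.05 and 4.24 CPM, with log2 changes of 0.26, 0.14 and 0.21. All 4 were thus higher in the shNRP2 library, under the 3 other scalings too, and IFIT1 alone was past 1.5-fold. The intervals of IFIT2 (0.915 to 1.36) and IFIT3 (0.889 to 1.60) include no difference.

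The OAS genes encode enzymes that make short oligoadenylates on double-stranded RNA and so switch on RNase L, and 3 of them, OAS1, OAS3 and OAS2, are neighbours on chromosome 12. OAS1 was at 4.86 CPM in shNRP2 and 2.39 CPM in shControl, 2.04-fold higher (1.44 to 2.92), from 103 and 49 reads. OAS3 was at 61.0 CPM in shNRP2 and 53.4 CPM in shControl, 1.14-fold higher (1.05 to 1.24). OAS2 had 4 reads in shNRP2 and 0 in shControl, too few to compare. OASL, a relative without the enzyme activity that strengthens RIG-I signalling, was at 10.6 CPM in shNRP2 and 9.15 CPM in shControl (log2 change 0.19). Within this run of neighbours, OAS1 was therefore past 1.5-fold and OAS3 was not.

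Enzymes that act on double-stranded RNA or degrade RNA did not pass 1.5-fold. EIF2AK2, which encodes the kinase PKR that halts translation, was at 35.4 CPM in shNRP2 and 34.2 CPM in shControl. ADAR, which edits adenosine to inosine, was at 437 CPM in shNRP2 and 464 CPM in shControl, 1.06-fold lower (1.03 to 1.09), a narrow interval that reflects 9266 and 9539 reads. ISG20, an RNA exonuclease, was at 9.86 CPM in shNRP2 and 7.40 CPM in shControl, 1.33-fold higher (1.08 to 1.65). ISG20 had the largest difference of the 3.

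**Figure D3:**
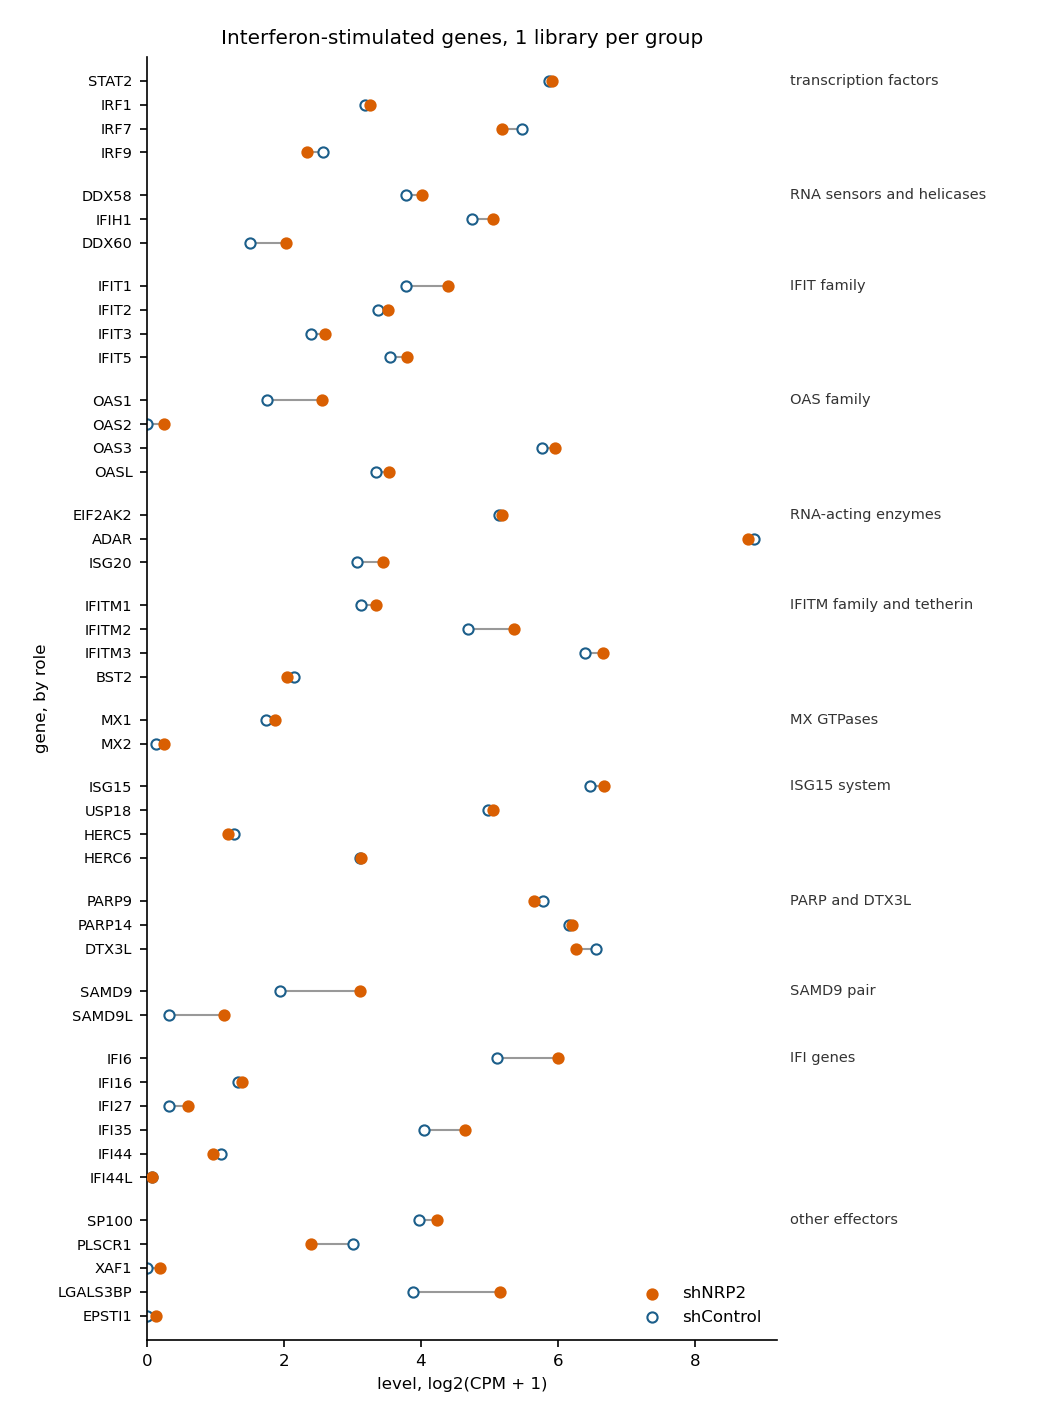
Level of each of the 44 members as log2(CPM + 1) in the shNRP2 library (filled orange) and the shControl library (open blue), 1 library per group, grouped by role with the role named at the right. The line that joins the points is longest for LGALS3BP and SAMD9, and most pairs of points nearly touch.

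The IFITM proteins sit in endosomal and surface membranes and block fusion of viruses with the cell. IFITM2 was at 40.0 CPM in shNRP2 and 24.7 CPM in shControl, 1.62-fold higher (1.45 to 1.81). IFITM3 was at 99.7 CPM in shNRP2 and 82.9 CPM in shControl, 1.20-fold higher (1.13 to 1.28), and IFITM1 at 9.15 CPM in shNRP2 and 7.74 CPM in shControl, 1.18-fold higher (0.953 to 1.47). The 3 genes are neighbours on chromosome 11 and near copies of each other. In GENCODE 29, 35.3% of the 50-base words of IFITM2 transcripts occur in another gene, as do 32.9% of those of IFITM1 and 16.0% of those of IFITM3, so the split of reads among them is uncertain. Summed over the 3 genes, the level was 149 CPM in shNRP2 and 115 CPM in shControl, 1.29-fold higher (1.22 to 1.36), which is under 1.5-fold. A gene model on the opposite strand, AC136475.5, overlaps 23.7% of the exon bases of IFITM3, and the strand setting of the counting is not given. BST2, which encodes tetherin, a protein that holds budding virus on the cell, was at 3.11 CPM in shNRP2 and 3.41 CPM in shControl (log2 change -0.10, interval of the ratio 0.643 to 1.30).

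The MX GTPases had few reads. MX1, which traps viral nucleoprotein, was at 2.64 CPM in shNRP2 and 2.34 CPM in shControl, from 56 and 48 reads, with a ratio of 1.13 (0.755 to 1.70). MX2 had 4 reads in shNRP2 and 2 in shControl. No difference was detectable for either at this depth.

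The ISG15 system attaches a ubiquitin-like protein to newly made proteins. ISG15 itself was at 101 CPM in shNRP2 and 87.5 CPM in shControl, 1.15-fold higher (1.08 to 1.23). USP18, which removes ISG15 and restrains the type I receptor, was at 32.0 CPM in shNRP2 and 30.4 CPM in shControl (log2 change 0.07). It shares 23.0% of its 50-base words with USP41, which is not analysed here. HERC5, the ligase that attaches ISG15, was at 1.27 CPM in shNRP2 and 1.41 CPM in shControl, and its neighbour HERC6 at 7.73 CPM in shNRP2 and 7.64 CPM in shControl. All 4 stayed within 1.5-fold.

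PARP9, DTX3L and PARP14, ADP-ribosyl transferases and a ubiquitin ligase that work together in interferon signalling and DNA damage, lie close together on chromosome 3. DTX3L was at 76.1 CPM in shNRP2 and 92.7 CPM in shControl, 1.22-fold lower (1.14 to 1.30), and PARP9 was at 49.2 CPM in shNRP2 and 54.0 CPM in shControl, 1.10-fold lower (1.01 to 1.20). PARP14 was at 72.9 CPM in shNRP2 and 70.6 CPM in shControl (log2 change 0.05). PARP9 and DTX3L were thus both lower, within 1.5-fold. They overlap at their starts on opposite strands over 2.77% of the exon bases of PARP9 and 3.70% of those of DTX3L, and the strand setting of the counting is not given.

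SAMD9 and SAMD9L, neighbours on chromosome 7 that restrict poxviruses and slow cell growth, differed most by plain ratio among the members with reads in both libraries. SAMD9 was at 7.64 CPM in shNRP2 and 2.82 CPM in shControl, 2.71-fold higher (1.99 to 3.72), from 162 and 58 reads. SAMD9L had 25 reads (1.18 CPM) in shNRP2 and 5 reads (0.243 CPM) in shControl, 4.84-fold higher with a wide interval (1.82 to 16.2). Its mean of 0.711 CPM kept it out of the genes compared, and without a filter on low values it was the 1 further member past 1.5-fold, at a log2 change of 0.81. IFI44, at a mean of 1.03 CPM, was the lowest member that passed the filter.

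The genes named IFI encode unrelated proteins. IFI6, a small membrane protein that protects cells from death and blocks flavivirus replication, was at 62.8 CPM in shNRP2 and 33.6 CPM in shControl, 1.87-fold higher (1.70 to 2.05). IFI35, which pairs with NMI, was at 24.1 CPM in shNRP2 and 15.5 CPM in shControl, 1.56-fold higher (1.35 to 1.80). The others had few reads. IFI16, a nuclear DNA sensor, was at 1.60 CPM in shNRP2 and 1.51 CPM in shControl, and IFI44 had 20 reads in shNRP2 and 23 in shControl. IFI27, one of the most strongly induced genes in interferon-treated tissue, had 11 reads in shNRP2 and 5 in shControl, and IFI44L had 1 read in each. The intervals of these 4 genes include no difference.

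Among the remaining effectors, LGALS3BP had the largest log2 change of all 37 compared members. It encodes a secreted glycoprotein that binds galectins and was at 34.5 CPM in shNRP2 and 13.8 CPM in shControl, 2.50-fold higher (2.18 to 2.88), from 731 and 283 reads. PLSCR1, a phospholipid scramblase that also acts against viruses, was at 4.24 CPM in shNRP2 and 7.06 CPM in shControl, 1.66-fold lower (1.27 to 2.19), from 90 and 145 reads. With a pseudocount of 5 CPM it no longer passed 1.5-fold. SP100, a component of nuclear bodies, was at 17.9 CPM in shNRP2 and 14.8 CPM in shControl, 1.21-fold higher (1.04 to 1.41). XAF1, which opposes the apoptosis inhibitor XIAP, had 3 reads in shNRP2 and 0 in shControl, and EPSTI1 had 2 and 0. The counts of XAF1 and EPSTI1 allow no comparison.

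**Figure D4:**
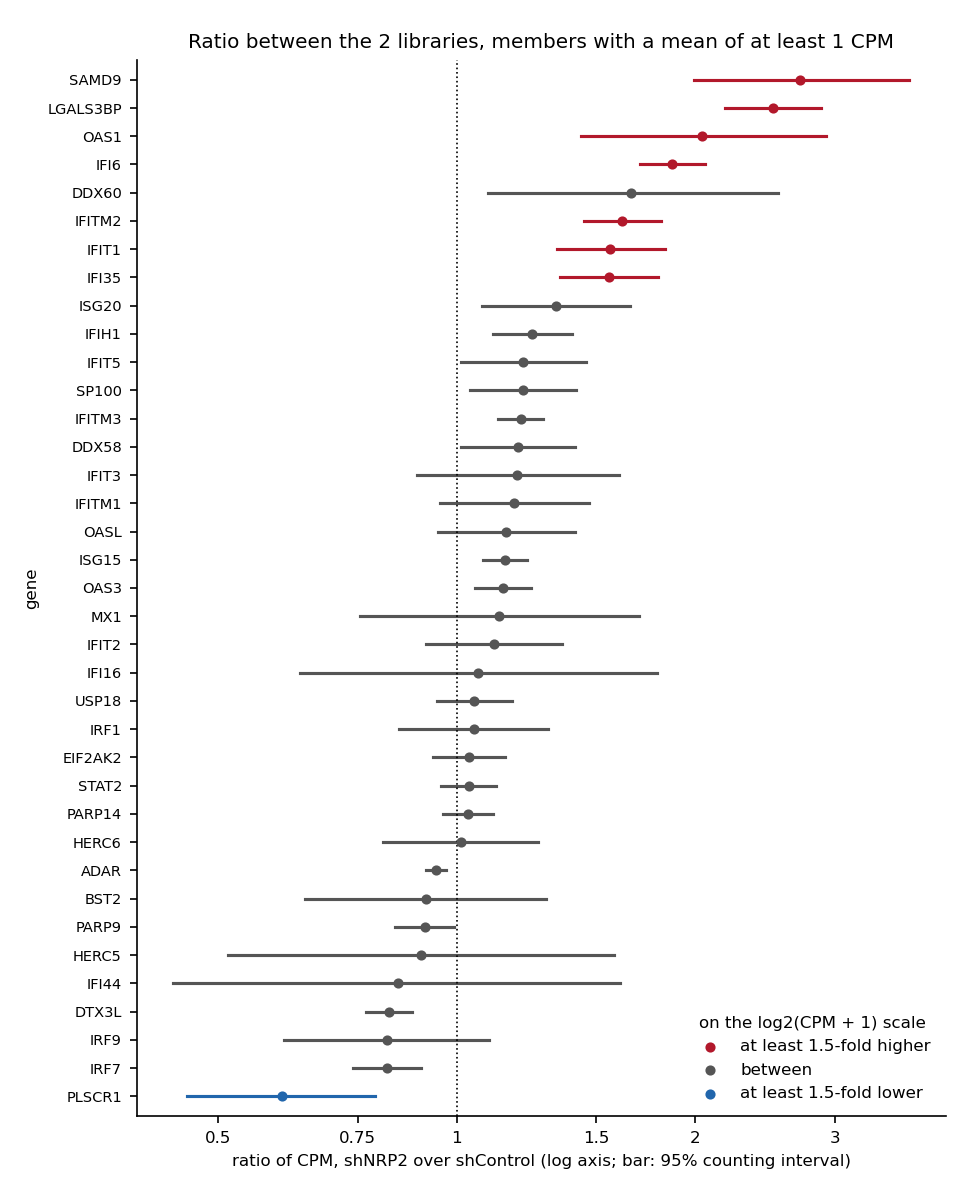
Ratio of CPM, shNRP2 over shControl, on a log axis for the 37 members compared, sorted from high to low, with exact 95% counting intervals as bars and colours for the calls on the log2(CPM + 1) scale. SAMD9, at 2.71, stands at the top, PLSCR1, at 0.601, at the bottom, and DDX60 lies among the called genes by ratio without being called.

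More members differed beyond counting error, with reads taken as independent, than passed the 1.5-fold rule, and the same held over all genes. An exact two-sided conditional binomial test on the reads, with Benjamini-Hochberg adjustment over all genes compared, called 14 members higher and 4 lower at an adjusted p under 0.05, or 37.8% and 10.8% of 37. The same test called 30.2% of all genes higher and 22.0% lower, 6954 genes in all (52.2%). It compares these 2 libraries and not the conditions. It was run with the authors' scaling only, so the split into higher and lower calls rests on that scaling. All 7 higher members and PLSCR1 were among the calls, and IFIH1, DDX60, OAS3, ISG20, IFITM3, ISG15 and SP100 were added on the high side and IRF7, ADAR and DTX3L on the low side.

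Transcripts of the interferons themselves were at or near 0 reads. Of 21 interferon genes listed in the tables, 19 had 0 reads in both libraries, including IFNB1, IFNG and all 13 IFNA genes. IFNL1 and IFNL3, type III interferons, had 1 read each in shNRP2 and 0 in shControl. Interferon protein, in the cells or in the serum of the medium, was not measured.

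Receptors and kinases stayed within 1.5-fold, with 0 of 8 compared genes called in either direction; with 5.78% of all genes higher and 3.57% lower, fewer than 1 call would fall among 8 genes at the background share. IFNAR1 and IFNAR2, the chains of the type I receptor, had 2015 and 571 reads in shNRP2, against 1590 and 452 reads in shControl, 1.23-fold (1.15 to 1.31) and 1.22-fold (1.08 to 1.39) higher in CPM. IFNGR2, a chain of the interferon-gamma receptor, was lower, at 23.4 CPM in shNRP2 and 32.0 CPM in shControl (log2 change -0.44). Of the 8 compared genes, 5 lay above 0 and 3 below. The kinase JAK1 had the largest change of the list, at 3.73 CPM in shNRP2 and 5.65 CPM in shControl (log2 change -0.49, 1.52-fold lower by plain ratio, 1.13 to 2.04). IFNLR1, the specific chain of the type III receptor, had 0 reads in both libraries. The median log2 change of the list was 0.10, against 0.03 over all genes compared.

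Inhibitors of receptor signalling and other IRF genes were also not called. These are too few genes to set against the background of 5.78% higher and 3.57% lower. Of 7 inhibitors compared, the cytokine signalling suppressor SOCS3 had the largest change, at 1.08 CPM in shNRP2 and 1.70 CPM in shControl, with 23 and 35 reads and an interval of the ratio from 0.359 to 1.11. Of 4 other IRF genes compared, IRF2 differed most, at 10.5 CPM in shNRP2 and 7.16 CPM in shControl (log2 change 0.50). The medians were -0.06 for the inhibitors and 0.20 for the IRF genes.

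Among 11 compared genes of nucleic acid sensing and its adaptors, 0 were at least 1.5-fold higher and 1 lower, where 5.78% of all genes were as high and 3.57% as low, so these counts are near the background. The lower gene was MYD88, the adaptor of most Toll-like receptors, at 35.5 CPM in shNRP2 and 62.6 CPM in shControl, 1.76-fold lower (1.61 to 1.93). TICAM1, the adaptor of TLR3, stood at the other end, at 39.0 CPM in shNRP2 and 26.5 CPM in shControl (log2 change 0.54). DHX58, the sensor relative LGP2, was at 1.23 CPM in shNRP2 and 2.24 CPM in shControl (log2 change -0.54), and it passed 1.5-fold with a pseudocount of 0.25 CPM, with equal totals and under quantile normalization. The DNA sensor genes MB21D1, ZBP1 and AIM2 had 0 reads in both libraries.

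Of 29 further interferon-induced effectors compared, 4 were at least 1.5-fold higher and 0 lower, or 13.8% higher, where 5.78% of all genes were as high and 3.57% as low. C19orf66, which blocks programmed ribosomal frameshifting, was at 5.75 CPM in shNRP2 and 1.80 CPM in shControl, 3.19-fold higher (2.20 to 4.75). UBE2L6, the enzyme that passes ISG15 to its ligase, was at 43.1 CPM in shNRP2 and 24.9 CPM in shControl, 1.73-fold higher (1.55 to 1.93), while UBA7, which activates ISG15, was at 3.21 CPM in shNRP2 and 4.24 CPM in shControl. TDRD7, a Tudor domain protein that restrains autophagy during infection, was at 22.5 CPM in shNRP2 and 13.1 CPM in shControl, 1.71-fold higher (1.47 to 2.00). TRIM34, a relative of the retroviral restriction factor TRIM5, was at 3.77 CPM in shNRP2 and 1.70 CPM in shControl, 2.21-fold higher (1.47 to 3.40), but it overlaps the readthrough model TRIM6-TRIM34, which had 14 reads in shNRP2 and 11 in shControl. With a pseudocount of 5 CPM, TRIM34 no longer passed 1.5-fold (log2 change 0.39). The median log2 change of this list was 0.10.

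Genes that respond mainly to interferon-gamma were mostly too low to compare. Of 13 listed, 5 had a mean of at least 1 CPM and 0 passed 1.5-fold in either direction, too few genes to set against the background of 5.78% higher and 3.57% lower. The guanylate-binding protein gene GBP4 had the largest change, at 1.37 CPM in shNRP2 and 0.682 CPM in shControl, from 29 and 14 reads (log2 change 0.49), and it passed 1.5-fold with a pseudocount of 0.25 CPM (0.80). IDO1 and the chemokine CXCL9 had 0 reads in both libraries. Over the 64 other pathway genes compared, 4 were higher (6.25%) and 1 lower (1.56%), against 5.78% and 3.57% of all genes, so the share of higher genes was near the background. Their median log2 change was 0.13.

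**Figure D5:**
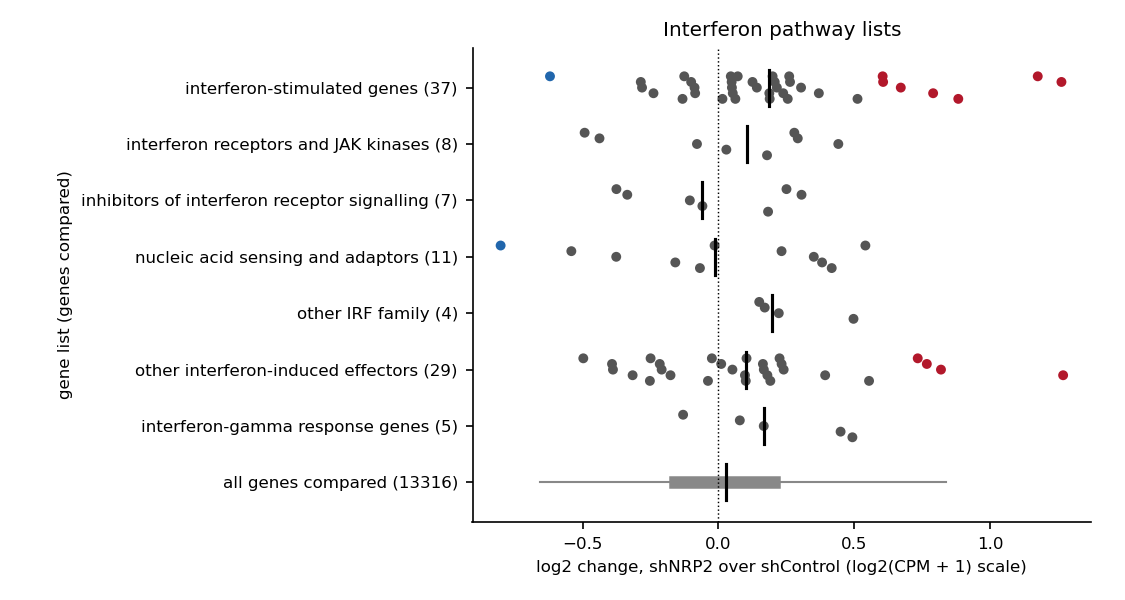
Log2 change of CPM + 1 (shNRP2 over shControl) of each compared gene in 7 lists, with the list median as a black bar, red for at least 1.5-fold higher and blue for at least 1.5-fold lower; the lowest row shows all 13316 genes compared as median, middle 50% (thick) and middle 95% (thin). Red points occur only in the interferon-stimulated genes (7) and the other effectors (4), and by the colour rule they lie to the right of the remaining lists. The highest change in those remaining lists was that of TICAM1, at 0.54.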

How the data were processed

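RNA sequencing of total RNA was deposited as 1 table per library, with a gene symbol, a gene name and 1 value. Per the deposited tables' labels, the authors made this signal by scaling read counts to library size with the TMM method, as CPM. The submitters' processing notes name bcl2fastq 2.17, Bowtie2 2.1.0, RSEM 1.2.15, edgeR and hg19; the sources used here do not say what each was for, which annotation was counted or whether by strand. The columns sum to 1084413 (shNRP2) and 1024943 (shControl), more than plain CPM would. All values (100%) were whole multiples of 1 read within 0.01 read, so reads were recovered; RSEM estimates need not be whole, and the tables do not say how whole values arose. Left out were 28 symbols that had turned into dates (0.184% of reads in shNRP2 and 0.181% in shControl).

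Changes are log2((shNRP2 CPM + 1)/(shControl CPM + 1)) over genes whose 2 values average at least 1 CPM, called at 1.5-fold. Ratios carry exact conditional binomial (Clopper-Pearson) 95% intervals, which cover counting error only, since reads are not independent molecules. Alternatives were other pseudocounts, filters, scalings and thresholds, a binomial test on reads, and the removal of the IFITM genes; the summed IFITM level was chosen after seeing the data. Members, lists and tests were chosen with earlier results of these data known. Members and pathway genes past 1.5-fold are named with full values, otherwise the largest change of each group; a member's other values are given in brief. Other pathway genes named beside these (IFNAR1, IFNAR2, IFNGR2, TICAM1, DHX58, UBA7 and genes at 0 reads) and the luminal markers named were chosen after their values were seen. Some genes of the lists are not reported here and enter no list count. Python 3.11.15, pandas 2.3.3 and scipy 1.17.1 were used, and the calculations were checked on simulated data. Promoters are RefSeq's (GRCh38.p14); the tables carry no coordinates. Shared words and exon overlaps come from GENCODE 29, another build than hg19, matched by symbol.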

Additional observations from a re-analysis of the deposited data

How the results depend on the processing

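The median log2 change of the interferon-stimulated genes stayed above 0 under all 8 alternatives that give one, between 0.11 (both libraries scaled to equal totals) and 0.19. The median over all genes compared also moved with the scaling, from 0.03 with the authors' scaling to -0.05 with equal totals. The main counts were 7 interferon-stimulated genes higher and 1 lower, and 4 other pathway genes higher and 1 lower. A pseudocount of 5 CPM gave 4 and 0 interferon-stimulated genes (10.8% higher, against 2.47% of all genes) and 3 and 1 other pathway genes, and a 2-fold threshold gave 2 and 0, with 1 and 0 other pathway genes. The binomial test on reads was run with the authors' scaling only. It gave 14 and 4 interferon-stimulated genes and 25 and 12 of 64 other pathway genes. Over all genes it called 30.2% higher and 22.0% lower. A filter at a mean of 5 CPM left 2 other pathway genes higher, by construction, since fewer genes are compared. A pseudocount of 0.25 CPM, equal totals and quantile normalization each gave 2 other pathway genes lower, DHX58 joining MYD88. DHX58 lay just short of 1.5-fold in the main setting (log2 change -0.54). It was just past with equal totals (-0.59) and quantile normalization (-0.60). With the smaller pseudocount, under which genes of low level move more by construction, it was at -0.75. Why quantile normalization moved it was not tested. With a median log2 ratio of 0 set over the compared genes, IFIT1 and IFI35 fell just short of 1.5-fold, at log2 changes of 0.58 each. With the 3 IFITM genes summed, the log2 change was 0.37, against 0.67 for IFITM2 alone. No called gene changed direction under any alternative. No paired analysis was possible because each group holds 1 library, and for the same reason no library could be left out. Depth limits the 7 members under a mean of 1 CPM, which had at most 25 reads in either library.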
